A study of Bos taurus with 30 samples.

Results

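The 10 genes described here act in the presomitic mesoderm and in the Notch pathway that divides it into segments. They are the ligand genes DLL1 (gene ID 788775) and DLL3 (505993), the receptor gene NOTCH1 (767866), the glycosyltransferase gene LFNG (516209) and the clock repressor gene HES7 (617638). The others are the transcription factor or cofactor genes TBX6 (526448), MSGN1 (521556), MESP1 (112443239), MESP2 (615145) and RIPPLY2 (781965). The rule names the members by their cattle symbols and uses no measured value, although it was set with earlier results of these data known. All 10 were found among the 35092 gene IDs of the count table. They were followed in 30 RNA libraries of 17 bovine (Bos taurus) embryos at day 15, an elongated stage before attachment to the uterus. The libraries came from the embryonic disc (ED), the flat epithelium that forms the embryo proper, and from the extra-embryonic membranes (EEM), the trophoblast and hypoblast around it.

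The IVP embryos came from slaughterhouse oocytes that were matured, fertilized and cultured in serum-free medium, and they were transferred to recipient cows before recovery. The IVV embryos were conceived by artificial insemination after ovarian super-stimulation and stayed in their donors. The same Holstein bull was used for both. There were 7 IVP and 9 IVV libraries of the ED, 6 IVP and 8 IVV libraries of the EEM, and 13 embryos (5 IVP and 8 IVV) with both tissues. Embryos in which no disc was seen had been discarded. The embryos of each procedure were flushed from a pair of Holstein cows, and the labels do not tell the cow of origin, the length or the sex of each embryo. The methods of the study describe the IVP embryos as shorter. Procedure, cow and embryo size therefore cannot be told apart here.

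In vertebrate embryos, mesoderm that has left the primitive streak forms the presomitic mesoderm, where TBX6 and MSGN1 set its identity. Delta ligands on one cell activate Notch receptors on the next, and LFNG and HES7 feed back on that signal so that it oscillates. Where the oscillation stops, MESP2 marks the border of the next somite and RIPPLY2 ends its expression, while MESP1 is known from the early mesoderm that leaves the streak.

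Library totals ran from 48713218 to 63037371 counts, so that 3 counts, taken as the floor of a library, correspond to 0.0442 to 0.0694 CPM (counts divided by the TMM-scaled library total and given on the usual CPM scale). This floor covers counting error only, while the 95% intervals of the fits include the spread between embryos. Disc libraries carried the disc markers POU5F1 (16.4 CPM or more) and NANOG (2.71 CPM or more), while NANOG stayed at or below 0.195 CPM and TBXT at 0 in the EEM, and SOX2 was listed at 0 in all 30 libraries. The disc libraries were not pure, since the summed level of 14 trophoblast markers was 11652 to 65976 CPM in the ED of IVP embryos and 27134 to 42583 CPM in that of IVV embryos. The medians were 32894 and 30920 CPM in these discs, against 45902 and 43083 CPM in the EEM of IVP and IVV embryos. In bulk tissue, fewer cells of a type and less RNA per cell cannot be told apart.

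**Figure D1:**
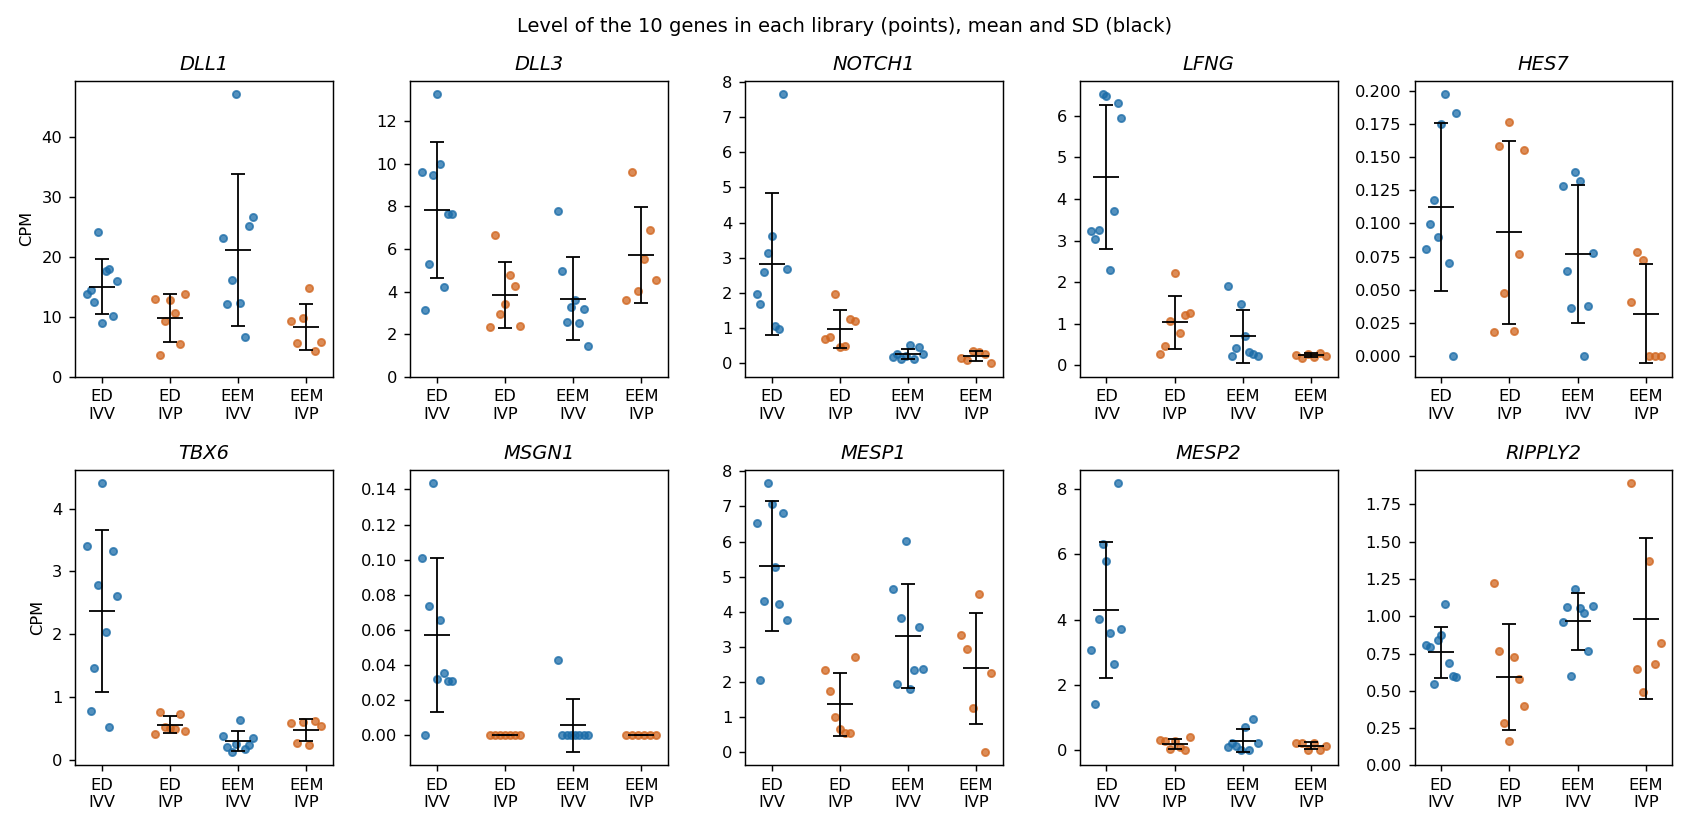
Level of each of the 10 genes in every library, in CPM on linear axes that differ between panels, for IVV (blue) and IVP (orange) embryos and both tissues; black marks are the mean and SD. In the ED, the 7 IVP libraries of MESP2 reach 0.415 CPM and the 9 IVV libraries start at 1.43 CPM, and those of LFNG reach 2.21 CPM and start at 2.30 CPM.

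The first comparison asked which of these genes differed between IVP and IVV embryos within the ED. MESP2, LFNG, TBX6, MESP1, NOTCH1 and DLL3 were lower in the ED of IVP embryos, MESP2 by far the most. DLL1 and RIPPLY2 did not pass the edgeR test. MSGN1 and HES7 had too few counts to be tested with the other genes. Of the 8 members tested, 6 were thus lower and 0 higher at a Benjamini-Hochberg adjusted p under 0.05 over all genes (edgeR quasi-likelihood test), and 7 were lower and 0 higher at an unadjusted p under 0.05. DESeq2 and limma voom gave 7 and 5 lower members, and 0 higher, the seventh being DLL1. Among all 15733 genes tested in the ED, edgeR called 4.95% lower and 1.40% higher in IVP embryos at that adjusted p. DESeq2 called 1101 of all genes lower and 411 higher, and limma voom 595 and 190. The median log2 fold change was -1.78 over the 8 members and -0.0079 over all genes tested.

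Both ligand genes had lower fitted levels in IVP discs, and whether they differed from each other was not tested. DLL3, a divergent Delta protein known to act inside the cell that makes it, had a lowest, median and highest level of 2.35, 3.40 and 6.65 CPM in the IVP discs and of 3.15, 7.66 and 13.3 CPM in the IVV discs. The ranges overlapped, with 3 of 7 IVP discs below every IVV disc and 6 of 9 IVV discs above every IVP disc. The log2 fold change was -1.00 ± 0.270 (SE, edgeR adjusted p = 0.0261). This call was lost in 5 of 16 fits with 1 embryo left out (IVPF13, IVPF14, VE29, VE5 or VE6, adjusted p from 0.00606 to 0.0663 over all 16), and in 4 of 13 other settings. DLL1, the main activating Delta ligand of the presomitic mesoderm, was at 3.62, 10.6 and 13.8 CPM (lowest, median and highest) in IVP discs and at 9.01, 14.4 and 24.0 CPM in IVV discs. Its log2 fold change of -0.78 (95% interval -1.35 to -0.21) had an edgeR adjusted p of 0.100 (DESeq2 0.0464, and 0.0464 to 0.561 over 13 settings), although 5 of 9 IVV discs lay above every IVP disc.

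NOTCH1, the receptor of these ligands, was at 0.449, 0.747 and 1.96 CPM (lowest, median and highest) in the IVP discs and at 0.982, 2.58 and 7.64 CPM in the IVV discs. Of the IVP discs, 4 of 7 lay below all IVV discs, and the highest IVV value, in embryo VE5, stood apart from the next at 3.61 CPM. The log2 fold change was -1.61 ± 0.423 (SE, edgeR adjusted p = 0.0228), and the call was lost without VE5 (-1.21, adjusted p = 0.0902) or IVPF13 (-1.50, adjusted p = 0.0517; 0.00903 to 0.0902 over all single embryos left out). LFNG, a fringe enzyme that modifies Notch receptors and is itself a target of the clock, did not overlap between the groups, although the gap was narrow. The share of all genes whose disc groups do not overlap was not counted. Its lowest, median and highest levels were 0.259, 1.07 and 2.21 CPM in IVP discs and 2.30, 3.72 and 6.52 CPM in IVV discs, so that each of the 7 IVP discs was below each of the 9 IVV discs. The log2 fold change was -2.34 ± 0.383 (SE, edgeR adjusted p = 0.000473), a 5.08-fold lower fitted level.

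HES7, the repressor at the core of the clock, was close to the floor throughout. It had 1 to 11 counts in the IVP discs and 0 to 12 in the IVV discs, and 0 to 6 counts over both groups of the EEM. Its means were 0.0933 ± 0.0688 CPM in the IVP discs and 0.113 ± 0.0634 CPM in the IVV discs (SD, n = 7 and 9). When genes with low counts were kept, the edgeR adjusted p for HES7 in the ED was 0.873, so no difference was detectable at this depth.

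TBX6, a T-box factor required for presomitic identity, was at 0.407, 0.513 and 0.770 CPM (lowest, median and highest) in IVP discs and at 0.526, 2.60 and 4.40 CPM in IVV discs. The IVP discs lay within a 1.89-fold range and the IVV discs within an 8.37-fold range. All but 1 of the 9 IVV discs were above every IVP disc, and that disc, VE4, fell among them. The log2 fold change was -2.03 ± 0.388 (SE, edgeR adjusted p = 0.00221).

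MSGN1, a bHLH factor that acts with TBX6, had 0 counts in all 7 IVP discs. In the IVV discs it had 0 to 8 counts, with more than 3 counts in 4 of 9 discs and 0 in 1 disc, VE24. Since 5 IVV discs were themselves at the floor of 3 counts, no fold change is given. When genes with low counts were kept in the fit, the edgeR adjusted p was 0.0139. In the EEM, MSGN1 had 0 counts in 13 of 14 libraries and 2 counts in the EEM of the IVV embryo VE19.

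MESP2 showed the largest difference of the 8. Its lowest, median and highest levels were 0, 0.272 and 0.415 CPM in IVP discs and 1.43, 3.72 and 8.18 CPM in IVV discs. The groups did not overlap, the lowest IVV disc, VE24, being above the highest IVP disc, but the share of all genes without overlap was not counted. The log2 fold change was -4.46 ± 0.551 (SE, edgeR adjusted p = 2.29e-05). By unadjusted p it ranked 22 of the 15733 genes tested. MESP1, its paralog and a near neighbour on the chromosome, was at 0.534, 1.00 and 2.71 CPM in IVP discs and at 2.06, 5.27 and 7.66 CPM in IVV discs. All IVV discs except VE24 were above all IVP discs, and the log2 fold change was -1.94 ± 0.394 (SE, edgeR adjusted p = 0.00373). Reads shared by the MESP1 and MESP2 paralogs could be split by the counting, so that their separate values carry this uncertainty.

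The pair did not move in proportion. The ratio of MESP2 to MESP1 counts within a library had a median of 0.822 in IVV discs (0.471 to 1.20) and of 0.153 in IVP discs (0 to 0.415). No IVP disc reached the lowest ratio of an IVV disc. In the EEM the median ratio was 0.0645 in IVV embryos and 0.0620 in the 5 IVP embryos with MESP1 counts. RIPPLY2, a corepressor that ends MESP2 expression, had medians of 0.578 CPM in IVP discs (0.160 to 1.22) and 0.797 CPM in IVV discs (0.546 to 1.08). Its log2 fold change was -0.38 (95% interval -1.10 to 0.34, edgeR adjusted p = 0.653), and the IVP discs spread on either side of the IVV range.

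**Figure D2:**
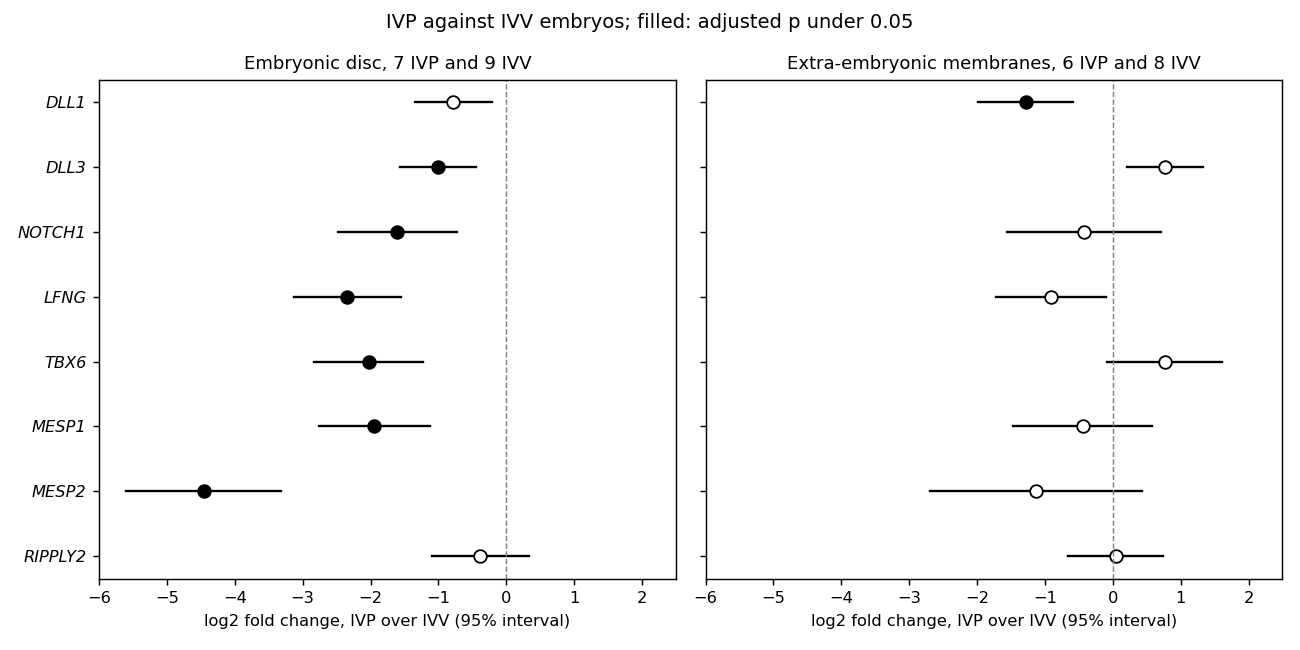
Log2 fold change of IVP over IVV embryos (x axis) for the 8 tested genes in the ED and the EEM, with 95% intervals; filled points had an adjusted p under 0.05. In the ED, 6 points are filled and all 8 lie below 0, from -0.38 for RIPPLY2 to -4.46 for MESP2, while in the EEM only DLL1 (-1.28) is filled.

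Genes of the same processes were read from lists of symbols. These lists include members and share genes such as TBXT, so that their counts are not independent of the results above or of each other. Of 19 tested genes of presomitic identity, 9 were lower and 0 higher in IVP discs by edgeR (median log2 fold change -1.51), where 4.95% of all genes were lower and 1.40% higher. DESeq2 gave 10 lower, limma voom 7 and an unadjusted p under 0.05 11, with 0 higher. Beside MESP2, TBX6 and MESP1, these were EVX1, a homeobox gene of the streak and tail bud (log2 fold change -2.67, edgeR adjusted p = 0.00336), CDX1, CDX4, TBXT, PCDH8 and DMRT2. Of 12 primitive streak genes tested, 5 were lower and 0 higher (8, 6 and 5 lower at an unadjusted p under 0.05, by DESeq2 and by limma voom), among them the ligand gene WNT3 (-3.06, adjusted p = 0.000257), the homeobox gene MIXL1 (-2.21, adjusted p = 0.000473), SNAI2 (-3.03, adjusted p = 0.00798) and TBXT, the Brachyury gene (-3.93, adjusted p = 0.00901).

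The wider Notch pathway was read from 3 lists, beside the 4.95% lower and 1.40% higher among all genes. Of 9 ligand and receptor genes tested, 2 were lower by edgeR, the members NOTCH1 and DLL3, and 0 higher. Lower were 3 at an unadjusted p under 0.05, 3 by DESeq2 and 1 by limma voom, with 0 higher in each. The receptor gene NOTCH2 was at 17.7 to 56.9 CPM in IVP discs and 16.7 to 51.7 CPM in IVV discs. Of 24 genes for processing and modification of Notch proteins, 4 were lower and 0 higher by edgeR (6 and 2 at an unadjusted p under 0.05, 4 and 1 by DESeq2, 2 and 0 by limma voom). LFNG was joined by MFNG, a further fringe gene (-1.51, adjusted p = 0.0219), by DLK1, a Delta-like gene (-2.18, adjusted p = 0.0289), and by NEURL1, a ubiquitin ligase gene (-1.51, adjusted p = 0.0337). Of 11 genes of the transcription complex and its targets, HEY1 was lower in the ED (-1.89, edgeR adjusted p = 0.00194) and 0 were higher, while DESeq2 called 1 lower and 1 higher. HEYL, a related target gene, had a log2 fold change of 1.00 (edgeR adjusted p = 0.0535). The Notch target HES1 was at 13.8 to 64.6 CPM in IVP discs and 29.0 to 92.3 CPM in IVV discs.

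Among Wnt and FGF genes that act with the clock, 4 of 21 tested were lower and 1 higher in the IVP discs by edgeR, again beside 4.95% and 1.40% of all genes. Lower were 11 at an unadjusted p under 0.05, 7 by DESeq2 and 3 by limma voom, with 1 higher in each. WNT5A (log2 fold change -3.13, edgeR adjusted p = 6.8e-05), the nuclear effector gene LEF1 (-3.57, adjusted p = 0.000716), the Wnt feedback inhibitor gene NKD1 (-1.99, adjusted p = 0.000858) and WNT3A (-1.70, adjusted p = 0.0374) were lower. RSPO3, which encodes a secreted enhancer of Wnt signals, was higher (1.07, adjusted p = 0.0341). Formed somites had little transcript to measure, with 6 of 17 genes tested, of which PAX3 was lower (-2.87, adjusted p = 0.00678). MEOX1 had at most 1 count in the IVP discs and at most 28 in the IVV discs.

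**Figure D3:**
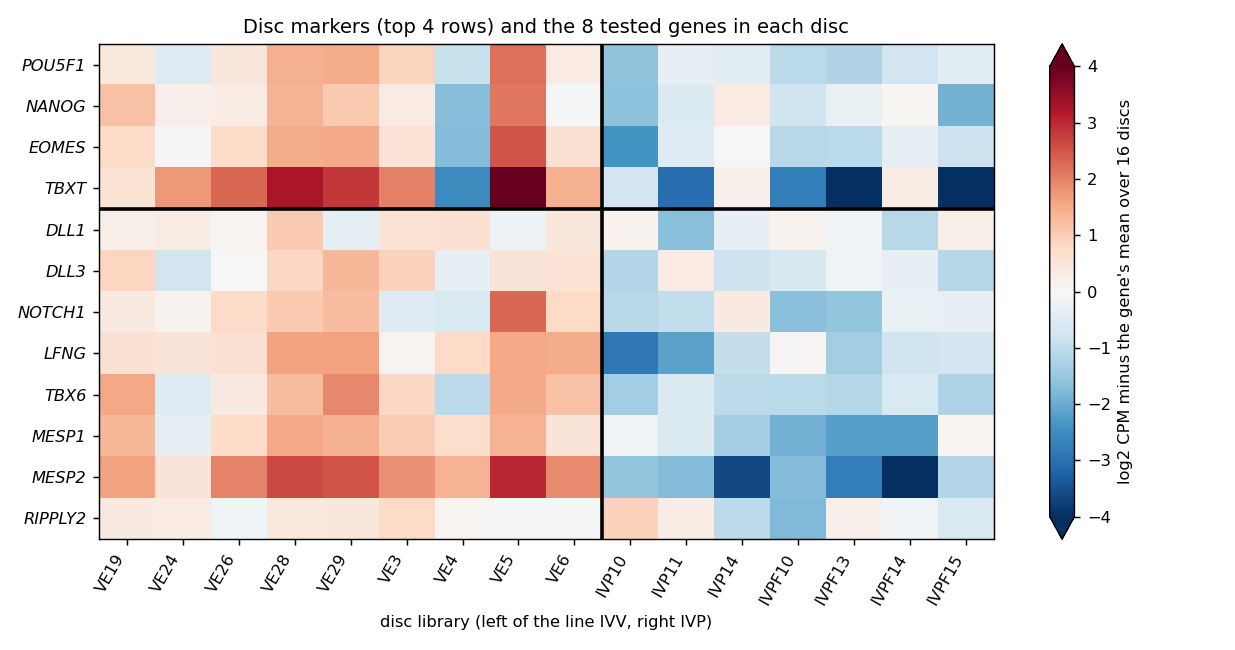
Log2 CPM minus the mean of each gene over 16 disc libraries, for 4 disc and streak markers (above the horizontal line) and the 8 tested genes, with IVV discs left and IVP discs right of the vertical line; red is above and blue below the mean, and colours are clipped at 4. MESP2 lies above its mean in all 9 IVV discs and below it in all 7 IVP discs, while DLL1 and RIPPLY2 mix, and the IVV discs VE4 and VE24 lie below the mean for TBX6, DLL3 and POU5F1.

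The IVV discs differed widely among themselves. Over the 6 genes that passed the test, ranked from low to high across 16 discs, VE24 and VE4 had the lowest mean ranks of the IVV discs (7.50 and 8.00), and VE5, VE28 and VE29 the highest (14.2, 14.5 and 15.2). The IVP discs had mean ranks from 3.17 to 5.50. These genes chose the order, so that it is a description only. In VE24 and VE4, DLL3 was at 3.15 and 4.21 CPM, within the range of the IVP discs. TBX6 was at 0.526 CPM in VE4, within that range, and at 0.780 CPM in VE24, just above the highest IVP disc (0.770 CPM), but MESP2 was at 1.43 and 2.63 CPM, above every IVP disc.

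Depth and the share of disc cells may vary between the 9 IVV discs, and their part in the correlations below was not tested. Over these discs, MESP1 and MESP2 levels had a Pearson r of 0.85 on the log2 CPM scale. TBX6 and DLL3 had an r of 0.89, and NOTCH1 and LFNG one of 0.76. DLL1 followed none of the other tested members closely, with r from -0.53 with NOTCH1 to 0.26 with RIPPLY2.

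The genes most like each member over these 9 discs were taken by Pearson r alone and were not sorted by function. For TBX6 they were CGREF1, FGF17 and APBB1IP (r 0.99, 0.96 and 0.96), and FGF17 encodes an FGF ligand of the streak and tail bud. For MESP2 they were TLE5, ARHGAP45 and PLEKHO1 (0.98, 0.98 and 0.97), for MESP1 TRRAP, DKKL1 and SH2D5 (0.98, 0.96 and 0.96), and for DLL3 CCDC62, LDHD and TMEM35B (0.95, 0.95 and 0.94). For NOTCH1 they were SH3PXD2B, SLC4A4 and TTYH3 (0.99, 0.98 and 0.98). For LFNG they were SETBP1, CRTAC1 and TMEM190 (0.97, 0.96 and 0.96), for DLL1 C3H1orf52, PLK3 and GSTT4 (0.98, 0.96 and 0.95), and for RIPPLY2 H2AC20, DNAH10 and CD8A (0.94, 0.91 and 0.91). In the 7 IVP discs the same r was 0.87, 0.94 and 0.91 for NOTCH1 with its 3 genes in that order, 0.84, 0.85 and 0.54 for TBX6, and 0.21, -0.17 and 0.32 for MESP2. It was 0.11, -0.10 and 0.38 for MESP1, -0.37, 0.54 and 0.63 for DLL3, and 0.63, -0.23 and 0.12 for LFNG. For DLL1 it was -0.081, -0.56 and -0.63, and for RIPPLY2 0.72, -0.33 and 0.69. These genes are the top of all those tested in 9 libraries.

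Some cell type markers differed in the discs along with the members. Of 10 hypoblast markers tested, 1 was lower and 0 higher in IVP discs, CUBN (log2 fold change -2.43, edgeR adjusted p = 0.0261). Of 14 trophoblast markers, edgeR called 0 in either direction and limma voom 1 lower. Of 6 epiblast markers tested in the ED, POU5F1 was lower and DPPA4 higher in IVP embryos (1.00, edgeR adjusted p = 0.0248), and the median log2 fold change was -0.19. NANOG (-1.34, adjusted p = 0.0517), SALL4 (-0.28), LIN28A (-0.10) and LIN28B (-0.033) did not pass. POU5F1, a pluripotency factor of the epiblast, was at 16.4, 29.3 and 39.6 CPM (lowest, median and highest) in IVP discs and at 26.9, 68.7 and 228 CPM in IVV discs, and its log2 fold change was -1.72 (edgeR adjusted p = 0.00479). NANOG was at 2.71 to 12.5 CPM and 3.10 to 44.0 CPM. The summed level of the 10 epiblast markers was 105 to 304 CPM in IVP discs and 140 to 517 CPM in IVV discs, with SOX2 at 0. Over the 9 IVV discs, POU5F1 had an r of 0.90 with MESP2, 0.84 with TBX6 and 0.79 with NOTCH1, but -0.35 with DLL1.

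Set against POU5F1 in the same library, the members parted. POU5F1 was itself lower in IVP discs (log2 fold change -1.72), while DPPA4 was higher (1.00) and the median of the 6 epiblast markers tested was -0.19. The differences below therefore hold for POU5F1 as the reference only. MESP2 was still lower in IVP discs by 2.93 on the log2 scale, relative to POU5F1, and each of the 7 IVP discs lay below each of the 9 IVV discs. The same difference was -0.77 for LFNG, -0.63 for MESP1 and -0.31 for TBX6, and it was 0.079 for NOTCH1, 0.49 for DLL3, 0.79 for DLL1 and 0.95 for RIPPLY2. For these 7 genes the groups overlapped, and overlap after this scaling was not counted over all genes.

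**Figure D4:**
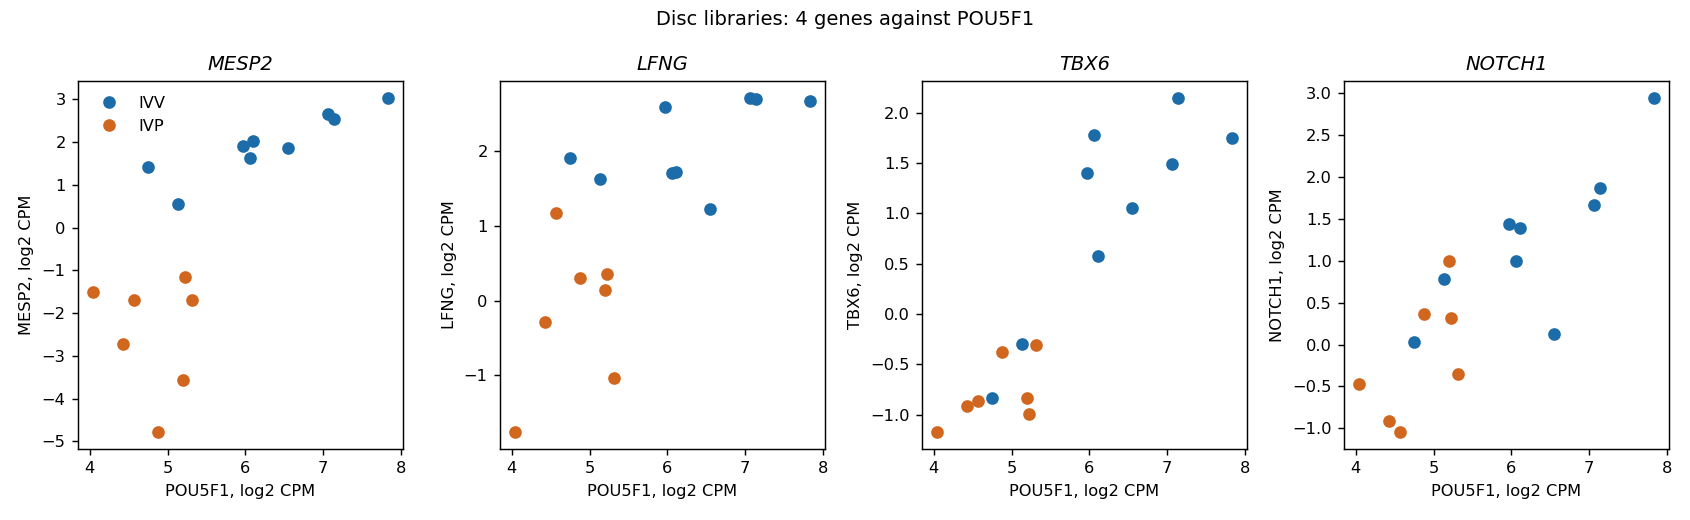
Log2 CPM of MESP2, LFNG, TBX6 and NOTCH1 (y axes) against log2 CPM of POU5F1 (x axis) in 16 disc libraries, IVV in blue and IVP in orange. In the MESP2 panel the 7 IVP discs stay under the 9 IVV discs also where their POU5F1 levels meet, while in the TBX6 and NOTCH1 panels the groups meet at low POU5F1.

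With the summed POU5F1 and NANOG level as a further covariate in the fit, a setting added after the data had been seen, 2 members stayed past the threshold, MESP2 (log2 fold change -3.54, edgeR adjusted p = 0.00179) and LFNG (-1.72, adjusted p = 0.0461). MESP1 (-1.44, adjusted p = 0.193), TBX6 (-0.74, adjusted p = 0.567), DLL3 (-0.33, adjusted p = 0.835) and NOTCH1 (-0.25, adjusted p = 0.929) did not. With the sum of 10 epiblast markers instead, 3 members stayed, MESP2, LFNG and MESP1. With summed trophoblast markers all 6 did. Over all 15733 genes tested, lower calls went from 778 without a marker covariate to 138 with summed POU5F1 and NANOG. They were 271 with summed epiblast markers and 741 with summed trophoblast markers, so that the loss of calls was not particular to the members. Over the 13 settings tried beside leaving out embryos, adjusted p-values ran up to 0.0461 for LFNG, 0.193 for MESP1, 0.567 for TBX6, 0.835 for DLL3 and 0.929 for NOTCH1, each highest with the POU5F1 and NANOG sum, and over 12 settings up to 0.00179 for MESP2. The markers themselves differ between the groups, so that these fits do not separate a smaller share of disc cells from lower expression per cell, and the part of either in the difference was not tested.

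In the EEM, DLL1 was lower in IVP embryos and no other member passed the test, so that 1 of the 8 members tested was lower and 0 were higher, while 2 were lower and 1 higher at an unadjusted p under 0.05. DESeq2 called 1 lower and 0 higher, and limma voom 0 in either direction. Of the 14718 genes tested in the EEM, edgeR called 1.52% lower and 2.29% higher in IVP embryos at an adjusted p under 0.05. DESeq2 called 316 of all genes lower and 488 higher, and limma voom 208 and 289. The median log2 fold change was -0.44 over the 8 members and 0.0038 over all genes tested. Of the cell type markers, 1 of 10 hypoblast genes was lower and 0 higher, TTR (-7.58, edgeR adjusted p = 3.2e-05). Among 5 epiblast genes 1 was higher and 0 lower, LIN28B (1.10, edgeR adjusted p = 0.0159), and 0 of 14 trophoblast genes were called.

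DLL1 had a lowest, median and highest level of 4.23, 7.54 and 14.8 CPM in the 6 IVP membranes and of 6.64, 19.7 and 47.1 CPM in the 8 IVV membranes. The ranges overlapped, with 3 IVP membranes below every IVV one and 5 IVV membranes above every IVP one. The log2 fold change was -1.28 ± 0.339 (SE, edgeR adjusted p = 0.0285). This call was lost when IVP11, VE28, VE4 or VE5 was left out (adjusted p from 0.00357 to 0.0961 over all embryos left out). It was also lost with the letter of the sample title or the level of XIST, a transcript of the inactive X chromosome, as a term (0.146 and 0.594), and held in 7 of 13 such settings (0.00576 to 0.594).

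DLL3 did not pass in the EEM, and its difference from DLL1 was not tested. It was at 3.59, 5.03 and 9.62 CPM (lowest, median and highest) in IVP membranes and at 1.44, 3.24 and 7.78 CPM in IVV membranes, a log2 fold change of 0.77 (95% interval 0.20 to 1.33, edgeR adjusted p = 0.139). TBX6 had medians of 0.566 and 0.249 CPM in IVP and IVV membranes, and its log2 fold change of 0.77 had an adjusted p of 0.451. LFNG was at 0.177 to 0.300 CPM in IVP membranes and 0.214 to 1.90 CPM in IVV membranes (-0.91, adjusted p = 0.266), the IVV embryos VE19 and VE28 being the highest.

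MESP2 in the membranes was at 0 to 0.224 CPM in IVP and 0 to 0.957 CPM in IVV embryos (-1.13, edgeR adjusted p = 0.629). MESP1 was well detected there, with medians of 2.60 and 2.96 CPM (-0.44, adjusted p = 0.880), although 1 IVP membrane, IVPF14, had 0 counts. NOTCH1 reached 0.362 CPM in IVP and 0.529 CPM in IVV membranes (-0.43, adjusted p = 0.917), and RIPPLY2 had medians of 0.751 and 1.04 CPM (0.042, adjusted p = 0.994). The 95% intervals for MESP2, MESP1 and NOTCH1 were wide (-2.69 to 0.44, -1.47 to 0.58 and -1.57 to 0.71).

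The related lists in the EEM were read beside the 1.52% lower and 2.29% higher among all genes tested there. Since the lists are short, a single call in 1 of them says little about the list. Notch targets had 1 gene lower, HEY1 (-1.63, edgeR adjusted p = 0.00952), and 1 higher, HEYL (0.87, adjusted p = 0.0393), of 10 tested. Of the 22 genes for processing and modification NEURL1 was lower (-1.77, adjusted p = 0.0204). None of the 13 presomitic identity genes tested in the EEM passed in either direction (edgeR), with 1 lower and 2 higher at an unadjusted p under 0.05 and 0 by DESeq2. Of 17 Wnt and FGF genes, NKD1 was lower (-1.47, adjusted p = 0.0145) and RSPO3 higher (1.64, adjusted p = 0.00342), the same directions as in the ED. NODAL (-2.51, adjusted p = 0.00107) and SNAI2 (-2.20, adjusted p = 0.0333) were lower among 6 streak genes tested.

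The second question was where these genes are expressed, and it was answered within the 13 embryos that gave both tissues, with embryo as a block. In IVV embryos, 5 of 8 members tested were higher in the ED than in the EEM (NOTCH1, LFNG, TBX6, MESP2 and DLL3) and 0 were lower. Of all 16784 genes tested here, 15.6% were higher and 6.55% lower in the ED. At an unadjusted p under 0.05, and by DESeq2, the member counts were again 5 and 0. DESeq2 called 2882 of all genes higher and 1238 lower. In IVP embryos, 1 member, NOTCH1, was higher in the ED and 0 were lower (2 and 0 at an unadjusted p under 0.05 and by DESeq2), where edgeR called 4.18% of all genes higher and 0.649% lower. DESeq2 called 963 of all genes higher and 238 lower. The IVP contrast rests on 5 embryos and the IVV contrast on 8, so that the counts themselves are not a comparison of the procedures.

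**Figure D5:**
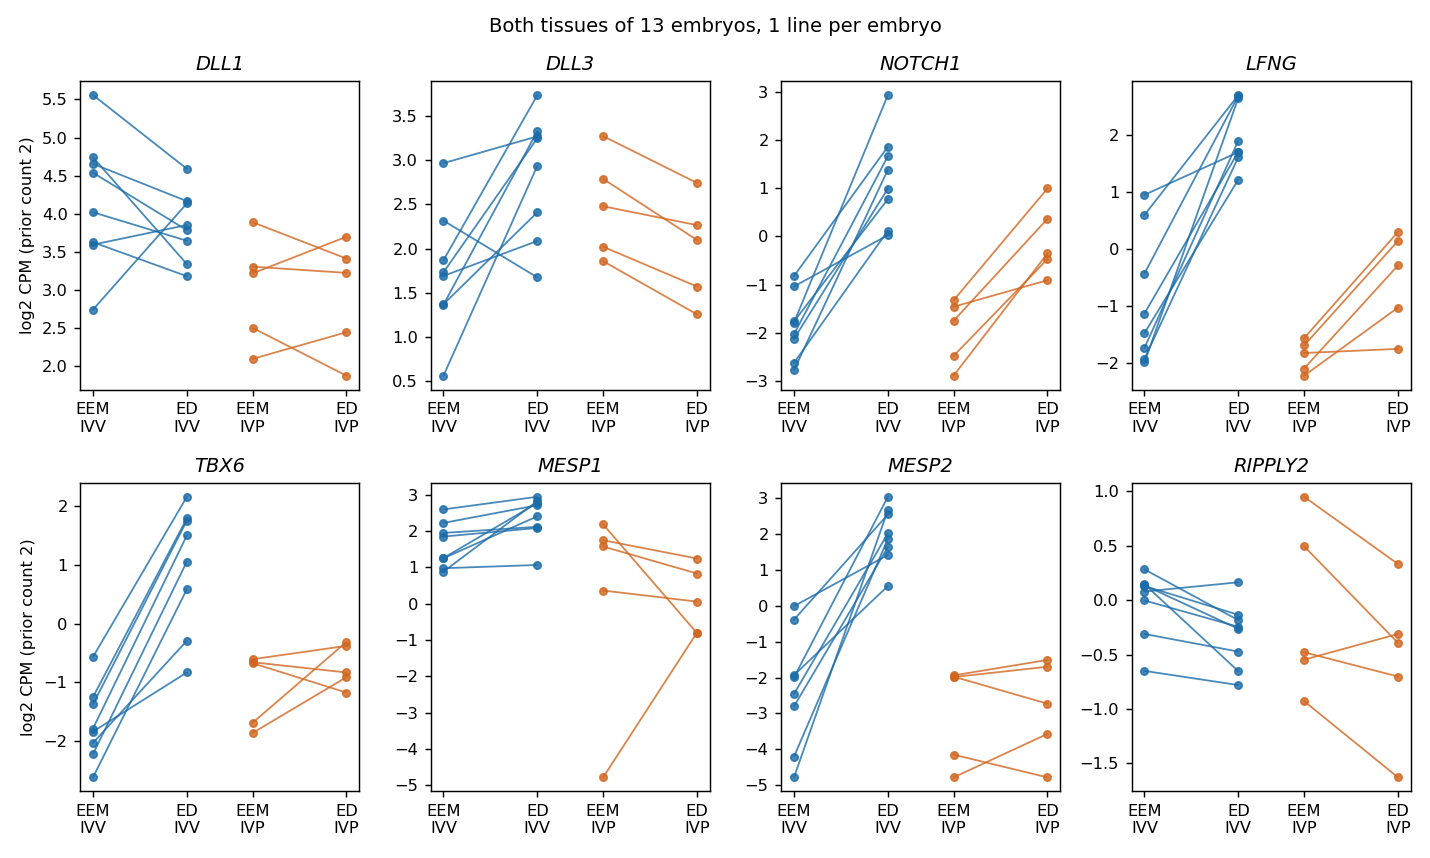
Log2 CPM (prior count 2) of 8 genes in the EEM and the ED of each embryo, joined by a line, for 8 IVV (blue) and 5 IVP (orange) embryos. All 8 IVV lines rise from EEM to ED for NOTCH1, LFNG, TBX6, MESP1 and MESP2, and in IVP embryos all 5 rise for NOTCH1 and LFNG and all 5 fall for DLL3.

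NOTCH1 was higher in the ED in 8 of 8 IVV embryos and in 5 of 5 IVP embryos. The difference was 3.28 ± 0.379 on the log2 scale in IVV embryos (SE, edgeR adjusted p = 2.22e-06) and 2.05 ± 0.470 in IVP embryos (adjusted p = 0.0117). LFNG was also higher in the ED of every embryo, by 3.01 in IVV embryos (adjusted p = 3.14e-06) and by 1.50 in IVP embryos (95% interval 0.52 to 2.48, adjusted p = 0.0749). Leaving out IVP14 took the NOTCH1 contrast in IVP embryos to an adjusted p of 0.0695, the highest of 13 such fits (from 0.00394).

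TBX6 and MESP2 were higher in the ED of IVV embryos, and in IVP embryos no tissue difference was detectable. MESP2 was higher in the ED in 8 of 8 IVV embryos, with a log2 difference of 4.27 ± 0.579 (SE, edgeR adjusted p = 1.49e-05), and in 3 of 5 IVP embryos, with a difference of 0.11 (95% interval -1.73 to 1.95, adjusted p = 0.970). TBX6 was higher in 8 of 8 IVV embryos (2.86 ± 0.325, adjusted p = 1.85e-06) and in 3 of 5 IVP embryos (0.35, 95% interval -0.48 to 1.17, adjusted p = 0.722). Its mean levels were 2.37 ± 1.28 CPM in IVV discs, 0.559 ± 0.137 CPM in IVP discs, 0.478 ± 0.173 CPM in IVP membranes and 0.299 ± 0.161 CPM in IVV membranes (SD, n = 9, 7, 6 and 8). In that order the IVP disc and the membranes of either procedure overlapped.

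DLL3 was higher in the ED in 7 of 8 IVV embryos (1.13 ± 0.270, edgeR adjusted p = 0.00446), VE24 being the exception, and lower in the ED in all 5 IVP embryos (-0.54, 95% interval -1.21 to 0.14, adjusted p = 0.437). MESP1 was higher in the ED in 8 of 8 IVV embryos, but by little in some of them, from 0.090 in VE24 to 1.94 in VE29, and the test did not pass (0.75, adjusted p = 0.194). In IVP embryos MESP1 was lower in the ED in 4 of 5, and the fifth, IVPF14, had none in the EEM. DLL1 and RIPPLY2 did not pass the test between the tissues, with log2 differences of -0.36 and -0.30 in IVV embryos (95% intervals -0.83 to 0.11 and -0.77 to 0.17) and of -0.10 and -0.50 in IVP embryos. Without VE3, DLL1 was lower in the ED of IVV embryos (-0.59, edgeR adjusted p = 0.0305, the lowest of 13 such fits, up to 0.569).

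Whether the tissue difference itself depended on the procedure was tested as an interaction, IVP minus IVV. TBX6 passed, with a value of -2.52 ± 0.510 on the log2 scale (SE, edgeR adjusted p = 0.0166). It was lost when IVP10, IVP14 or IVPF14 was left out (adjusted p from 0.00528 to 0.0584 over 13 fits). Of the 8 members tested, 1 was negative and 0 positive past the threshold, and 4 were negative and 0 positive at an unadjusted p under 0.05. DESeq2 gave 3 negative and 0 positive members. Of all 16784 genes, edgeR called 0.918% negative and 0.107% positive at an adjusted p under 0.05, and DESeq2 called 390 negative and 45 positive. NOTCH1, at an unadjusted edgeR p of 0.0527, ranked 1792 of all genes by p.

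DLL3 (-1.66, adjusted p = 0.0632) and MESP2 (-4.16, adjusted p = 0.0670) missed the threshold in the same test, LFNG was at -1.51 (adjusted p = 0.307), NOTCH1 at -1.23 (adjusted p = 0.494) and MESP1 at -1.31 (adjusted p = 0.552). The values of DLL1 and RIPPLY2 were 0.26 (95% interval -0.50 to 1.01) and -0.20 (-0.96 to 0.57). In the related lists the interaction passed for WNT5A (-4.19, edgeR adjusted p = 0.000278), MIXL1 (-2.46, adjusted p = 0.00744) and WNT3 (-2.70, adjusted p = 0.0420). No gene of the 3 Notch lists passed it in either direction (edgeR), where 2 of 9 ligand and receptor genes, 5 of 25 processing and modification genes and 0 of 11 targets were negative at an unadjusted p under 0.05 and DESeq2 called 1, 0 and 0.

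The related lists were read beside the shares of all genes higher in the ED, 15.6% in IVV and 4.18% in IVP embryos. Of 19 presomitic identity genes tested between the tissues (23 in the list), 11 were higher and 0 lower in the ED of IVV embryos, and 2 were higher and 0 lower in that of IVP embryos, EVX1 and TBXT. An unadjusted p under 0.05 gave 12 and 0 in IVV and 7 and 1 in IVP embryos, and DESeq2 11 and 0, and 2 and 1. In each procedure, 4 of the 19 genes had a tissue at the floor of 3 counts. TBXT, with 0 counts in every EEM library, passed the filter only through the ED. Of 13 primitive streak genes, 11 were higher in the ED of IVV embryos and 7 in that of IVP embryos, and of 23 Wnt and FGF genes 17 and 5 were, with 0 lower in each. An unadjusted p under 0.05 gave 12 and 9 streak genes higher and DESeq2 10 and 7. For Wnt and FGF genes these were 18 and 10, and 16 and 8. A tissue was at the floor for 3 and 5 streak genes and for 2 and 2 Wnt and FGF genes. Among them, TBXT and, in IVP embryos, EOMES had 0 counts in the EEM and were called through the ED. For the Notch ligand and receptor list, 4 of 9 genes were higher in the ED of IVV embryos, JAG1 (1.73) and NOTCH3 (1.31) beside NOTCH1 and DLL3. Among the 25 processing and modification genes, 6 were higher in the ED of IVV embryos and 1 lower, and DTX4 (3.21), DTX3 (3.10), LFNG and DTX1 (5.30) had the smallest p. DTX3 (1.97) and DTX4 (1.54) were also higher in the ED of IVP embryos. Of 11 genes of the transcription complex and targets, HEY2 (2.21) and MAML3 (0.53) were higher and HES2 (-0.82) lower in the ED of IVV embryos, and 0 passed in IVP embryos (edgeR, with 2 lower at an unadjusted p under 0.05 and 1 by DESeq2). For this list of 11 genes, the counts lie near the shares of all genes in IVV embryos (15.6% higher and 6.55% lower).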

How the data were processed

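Messenger RNA (poly(A)) was sequenced from the ED and EEM of single embryos, without strand information. The authors trimmed the reads, aligned them with STAR 2.7.0b to the cattle genome build ARS-UCD1.3 and counted reads per gene with featureCounts (Subread 2.0.3), and they deposited raw counts for 35092 gene IDs. Columns not used numbered 0. Symbols came from the RefSeq table of ARS-UCD2.0, which named 31630 IDs holding 99.5% of the counts, so coordinates are not given and sequences are not analysed here.

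Groups followed the sample labels. The members and all gene lists were chosen with earlier results of these data known. Named genes are all 10 members, at most 4 called genes of each list and direction with the smallest p, and the 3 genes with the highest Pearson r to each member over the IVV discs. NOTCH2, HES1, HEYL in the ED, MEOX1, CDX1, CDX4, PCDH8, DMRT2 and the uncalled epiblast markers were named after their values were seen. Counts were tested in R 4.3.3 with the edgeR 4.0.16 quasi-likelihood test after TMM scaling and filterByExpr (minimum count 10), which kept 8 members, MSGN1 and HES7 falling below it. Within a tissue the fit held the procedure and 1 surrogate variable from sva 3.50.0. The contrast of ED and EEM used 26 libraries, with the embryo (13 in all, named in the sample titles) as a block. Levels are CPM after TMM over all libraries, with a prior count of 2 on the log2 scale, and p-values were Benjamini-Hochberg adjusted over all genes tested. Percentages of all genes are from edgeR at an adjusted p under 0.05, and none was counted at an unadjusted p. The script was tested on simulated counts.

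Alternatives were DESeq2 1.42.0, limma voom (3.58.1), RLE size factors, 0 or 2 surrogate variables, no filter, at least 10 counts in every library, halved counts, the title letter or XIST as a term, no replicate block, and each embryo left out. Marker sums as covariates were added after the data had been seen, and the scaling to POU5F1 was not planned beforehand. P-values measure the spread between embryos of a pair of cows per procedure.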

Additional observations from a re-analysis of the deposited data

Results flagged for a closer look

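The TBX6 difference between ED and EEM depended on the procedure in a test of the difference itself. Its interaction was -2.52 on the log2 scale (edgeR adjusted p = 0.0166; lost in 3 of 13 fits with 1 embryo left out, 0.00528 to 0.0584), with TBX6 higher in the ED in 8 of 8 IVV and in 3 of 5 IVP embryos.

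A single library met a rule for outliers in 2 of 38 groups of values examined. Chance gives about 1 in 20 such groups where values are normally distributed. NOTCH1 in the ED of the IVV embryo VE5 was at 7.64 CPM, while the next highest IVV disc had 3.61 CPM. MSGN1 in the EEM of the IVV embryo VE19 was at 0.0427 CPM, which is 2 counts, while the other EEM libraries of IVV embryos had 0. The same VE19 library had the highest LFNG level of the EEM, 1.90 CPM.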

How the results depend on the processing

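In the ED, 6 members were lower in IVP embryos. The count fell to 3 with summed epiblast markers and to 2 with summed POU5F1 and NANOG as a covariate. It was 4 with at least 10 counts in every library (7 members tested, DLL3 lost and MESP2 untested), 5 with limma voom (NOTCH1 lost) or 2 surrogate variables (DLL3 lost), 7 with DESeq2 (DLL1 gained), 7 with no filter (MSGN1 gained, with 0 counts in all IVP discs), and 4 to 6 with single embryos left out (lost were DLL3 without IVPF13, IVPF14, VE29, VE5 or VE6, and NOTCH1 without IVPF13 or VE5). Lower calls over all genes moved too, from 778 to 271 with summed epiblast markers and 138 with summed POU5F1 and NANOG. They were 595 with limma voom, 610 with 2 surrogate variables, 1101 with DESeq2 and 1388 with no filter. With at least 10 counts in every library they were 324 of 12866 genes tested. In the EEM, 1 member was lower, and 0 with limma voom, at least 10 counts in every library, the title letter, XIST, summed epiblast markers or summed POU5F1 and NANOG, and 0 to 1 with embryos left out. Over all genes of the EEM, lower calls went from 224 to 208, 81, 161, 90, 245 and 179 in these settings, in that order. The 5 members higher in the ED than in the EEM of IVV embryos became 1 with at least 10 counts in every library, where few members are tested, and stayed 5 with each embryo left out, while DLL1 was gained as lower without VE3. The 1 such member of IVP embryos became 2 with DESeq2 or no filter, 0 with at least 10 counts in every library, and 0 to 2 with embryos left out. With at least 10 counts in every library, genes higher in the ED went from 2611 to 1088 in IVV and from 701 to 166 in IVP embryos. In IVP embryos they were 963 with DESeq2 and 876 with no filter. The 1 member with an interaction became 3 with DESeq2 or no filter, 0 with at least 10 counts in every library, and 0 to 3 with embryos left out. Negative interactions over all genes went from 154 to 390 with DESeq2, 304 with no filter and 11 with at least 10 counts in every library. The paired fit with embryo as a block and the fit with no replicate block gave the same counts (5, 1 and 1).

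Signs turned in values that passed no test. Between ED and EEM of IVP embryos, DLL1 turned positive without IVP11, MESP1 without IVPF13, and MESP2 negative without IVP10 or IVP14. With single embryos left out they ran from -0.24 to 0.065, from -1.11 to 0.028 and from -0.13 to 0.47 (log2). Between procedures in the EEM, MESP2 was 0.23 and NOTCH1 0.075 with XIST as a covariate, and RIPPLY2 was -0.093 with limma voom, -0.058 with summed trophoblast markers, and -0.25 to 0.17 with embryos left out, negative without IVP10, IVPF13 or VE26. For these changes the cause was not tested, beyond the fewer genes or embryos that a setting leaves. Depth limited MSGN1 and HES7, with at most 8 and 12 counts in a library.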
